A study of Mus musculus with 5 samples.

Results

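The genes described here were 34 mouse genes of homologous recombination and the Fanconi anemia pathway, taken from a written list by symbol and found by Ensembl identifier among 21835 genes of the deposited table. The list also held 3 genes of the ATR checkpoint and the mismatch repair gene *Msh6*, and no measured value was part of the rule. Gene expression was measured by bulk RNA sequencing of stranded mRNA libraries from murine lung cancer-associated fibroblasts (CAFs), the fibroblasts of the tumor stroma. Of the 5 samples, 2 were vector-transduced CAFs (CAF-vec, genotype given as WT control) and 3 were CAFs overexpressing from a lentivirus the gene cluster that encodes miR-200b, miR-429 and miR-200a (CAF-200). The comparison asked which transcripts of CAFs differed when miR-200 was overexpressed.

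All samples carry the same cell line label, CAF, and were cultured in alpha-MEM with serum, antibiotics, glutamine and pyruvate, with no drug or irradiation named. GEO's labels describe infection of CAFs with the cluster in pLVX-Neo, followed by selection with G418 for more than 2 weeks, whereas the study's methods name a hygromycin vector and normal lung fibroblasts as the infected cells, and the sources also name different RNA extraction kits. The methods describe extraction in triplicate, and 2 CAF-vec samples were analysed here. Whether samples of a group came from separate cultures is not stated, so *p* values measured only the spread between these samples, which may be technical.

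Homologous recombination repairs a broken chromosome by copying the sister chromatid: the broken ends are cut back, BRCA2 and its partners prepare them for strand exchange, and the joined molecules are later resolved or dissolved. The Fanconi pathway removes crosslinks between DNA strands, and its core complex attaches ubiquitin to the FANCI-FANCD2 clamp when a replication fork meets the lesion. Both pathways act mainly in S and G2 phase, and many of their genes are known targets of E2F factors, which switch on genes for DNA replication.

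The 3 mature miRNAs of the introduced cluster are shown first because their seeds, bases 2 to 8, set which transcripts they can pair with (RefSeq, GRCm38.p6, chromosome 4, seed in capitals). miR-200b and miR-429 share a seed, and that of miR-200a differs from it.
mmu-miR-200b-3p: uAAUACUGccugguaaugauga
mmu-miR-429-3p: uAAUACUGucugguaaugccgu
mmu-miR-200a-3p: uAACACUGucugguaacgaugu

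Matches of 7 bases to these seeds, CAGTATT for miR-200b and miR-429 and CAGTGTT for miR-200a, were counted in the longest 3′-UTR annotated for each gene (GENCODE M21, GRCm38). Only *Fancf*, *Rmi2* and *Fancd2* of the 34 genes held a match, which was 8.8%, whereas 30.3% of 12060 tested genes with an annotated 3′-UTR held one. The median 3′-UTR was 812.5 bases long in the 34 genes and 1174 bases over the tested genes, and the counts were not adjusted for length. The miR-200a matches, in capitals with 10 bases on either side, lay at chr7:51861089-51861095 (minus strand) in *Fancf*, at chr16:10840676-10840682 (plus strand) in *Rmi2* and at chr6:113596449-113596455 (plus strand) in *Fancd2*.
Fancf: tacaaattgtCAGTGTTctccccaatt
Rmi2: ggggttgtatCAGTGTTgggtttggct
Fancd2: tatcaatgatCAGTGTTtggtttggtc
The log2 fold-changes of these genes were −0.52, 0.77 and 1.11 in that order. Only *Fancd2* passed an adjusted *p* of 0.01 in the limma fit described below, and differences between the genes were not tested. *Rmi2* also held a match for miR-200b and miR-429. The 31 genes without a match had a median log2 fold-change of 0.69.

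Promoters of 27 of the 34 genes were found in RefSeq (GRCm38.p6), from 250 bases before to 50 bases after the start of each gene. Short forms of the E2F site were searched for on both strands. The first word was TTCCCGC, the second word was TTCGCGC, the third word was TTGCCGC and the fourth word was TTGGCGC. At least 1 of them occurred in 14 of the 27 promoters (51.9%), in 17.5% of the promoters of 9550 tested genes and in 9.7% of all 27025 promoters. A window is shown for the 4 genes with the largest log2 fold-changes among the 14, with the word in capitals on the strand of the gene. It lay 107 bases before the start of *Fancm* (chr12:65075487-65075511, plus), 21 bases after that of *Brca1* (chr11:101551919-101551943, minus), 208 bases before that of *Bard1* (chr1:71103165-71103189, minus) and 172 bases before that of *Fancb* (chrX:164980411-164980435, plus), and in *Brca1* and *Fancb* the word reads on the opposite strand. The promoter of *Fancm* held 2 matches, of which 1 is shown.
Fancm: gtcacacacTTCGCGCaatacgcat
Brca1: tagcgctagGCGCCAAgcggccggt
Bard1: ccgctcagtTTCCCGCtcaggaagt
Fancb: ggggtagagGCGGGAAtaagtgctc

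The 34 genes were mostly higher in CAF-200. Their values summed to 460.5 and 431.2 CPM (counts scaled to a common total) in the CAF-vec samples, whereas the CAF-200 samples reached 657.3, 645.8 and 661.4 CPM. The log2 fold-change was above 0 in 30 of the 34, beside 41.7% of tested genes. All 34 passed the filter on low values (at least 0.5 CPM in at least 2 samples), which left 12175 genes for limma on log2(CPM + 0.5) with Benjamini-Hochberg adjustment over all of them. At an adjusted *p* under 0.01, 14 of the 34 genes (41.2%) rose in CAF-200 and 0 fell, beside 4.45% of all tested genes that rose and 5.57% that fell. At an unadjusted *p* under 0.05, 24 of the 34 were higher and 2 were lower by the same limma fit, beside 17.3% and 27.6% of all tested genes (44.9% in either direction).

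The study's own thresholds also required a log2 fold-change beyond 1. By these 6 genes rose, *Exo1*, *Brca1*, *Bard1*, *Fancb*, *Fancm* and *Fancd2*, and 0 fell. Of all tested genes, 2.37% rose past both thresholds and 2.35% fell. At an adjusted *p* under 0.05, the share of tested genes that were higher was 11.9% and the share that were lower was 18.6%, while 24 of the 34 were higher and only *Mus81* was lower. In 27 of the 34 genes every CAF-200 value lay above both CAF-vec values, an arrangement found in 24.3% of tested genes. *Fance*, *Fancf* and *Mus81* lay below both CAF-vec values, as did 37.3% of tested genes, and in *Rad51d*, *Fancc*, *Fancl* and *Atrip* the groups overlapped. The median log2 fold-change of the 34 genes was 0.71, with a range from −0.61 to 1.31, beside −0.09 for all tested genes.

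The number of calls moved with the samples for all genes alike. Without any 1 of the CAF-200 samples, 0 of the 34 genes passed an adjusted *p* of 0.01 in limma, and over all tested genes 0 passed without sample 1 or 3 and 1 without sample 2. At an unadjusted *p* under 0.05, the same 24 genes as with all samples were higher in each of these fits, beside 12.4% to 12.8% of all tested genes. The lowest adjusted *p* among them was then 0.0218, 0.0232 or 0.0257, without CAF-200 sample 1, 2 or 3. Without CAF-vec sample 1 the count was 22 higher and 0 lower, beside 13.3% and 16.6% of all tested genes. Without CAF-vec sample 2 it was 25 higher and 5 lower, beside 19.4% and 31.3%, so that the share of the 34 that were lower was under that of all genes. The median log2 fold-change stayed between 0.67 and 0.72 in these 5 fits. With no filter on low values 7 of the 34 rose, beside 2.16% of the 16044 genes then tested.

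**Figure D1:**
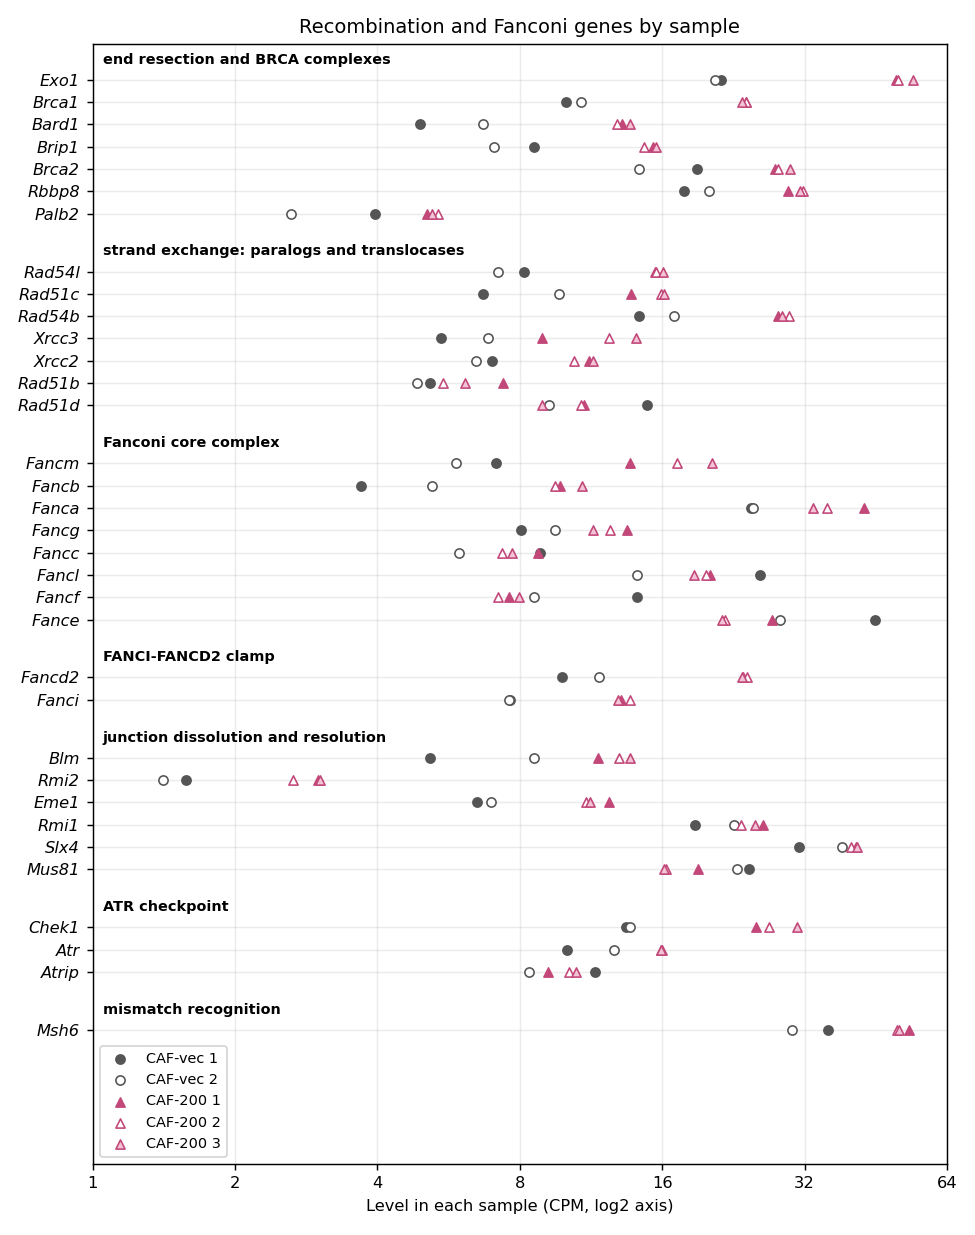
Level of each of the 34 genes in every sample, in CPM on a log2 axis, grouped by role; grey circles are the 2 CAF-vec samples and pink triangles the 3 CAF-200 samples. The triangles lie to the right of both circles in 27 genes and to the left of both in *Fance*, *Fancf* and *Mus81*.

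Genes that cut back broken ends or form the BRCA complexes were all above both CAF-vec values, and 5 of 7 rose. *Exo1*, a nuclease that resects DNA ends and also serves mismatch repair, stood at 21.4 and 20.7 CPM in CAF-vec and at 49.8, 50.5 and 54.3 CPM in CAF-200. Its log2 fold-change was 1.27 (SE 0.0861, adjusted *p* = 0.00186), the lowest adjusted *p* of the 34 genes. *Brca1*, which with BARD1 forms a ubiquitin ligase that promotes resection, was at 10.0 and 10.8 CPM in CAF-vec and at 24.0, 24.1 and 23.5 CPM in CAF-200. The difference was 1.16 on the log2 scale (SE 0.0874, adjusted *p* = 0.00247), while the CAF-200 samples differed by less than 1 CPM.

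*Bard1*, the partner of *Brca1*, moved by a similar amount from a lower level. It was at 4.91 and 6.70 CPM in CAF-vec and at 13.2, 12.8 and 13.7 CPM in CAF-200, so that its log2 fold-change was 1.14 (SE 0.144, adjusted *p* = 0.00570). *Brip1*, a helicase that binds BRCA1 and is also known as FANCJ, rose by 0.92 (adjusted *p* = 0.00551), and *Rbbp8*, which encodes the resection factor CtIP, by 0.69 (adjusted *p* = 0.00723). *Brca2*, a mediator of strand exchange, reached 0.78 (adjusted *p* = 0.0123). *Palb2*, which bridges BRCA1 and BRCA2, had the smallest value of the group, 0.62 (SE 0.173, adjusted *p* = 0.0444), with 3.96 and 2.62 CPM in CAF-vec and 5.08, 5.38 and 5.21 CPM in CAF-200. Neither of these passed an adjusted *p* of 0.01, although all CAF-200 values were the higher ones.

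Among the paralog genes *Rad51b*, *Rad51c*, *Rad51d*, *Xrcc2* and *Xrcc3*, whose products assist strand exchange, and the RAD54 translocases, which help the broken strand invade the intact duplex, 3 of 7 genes rose. *Rad54l* was at 8.17 and 7.19 CPM in CAF-vec and at 15.4, 15.5 and 16.1 CPM in CAF-200 (log2 fold-change 0.99, SE 0.0998, adjusted *p* = 0.00343). *Rad54b* rose by 0.87 (adjusted *p* = 0.00506) and the paralog *Xrcc2* by 0.67 (adjusted *p* = 0.00833). *Fsbp*, which shares 2068 exonic bases with *Rad54b* on the same strand, lay between 0.968 and 1.18 CPM in every sample. *Lrrc41*, which shares 1184 exonic bases with *Rad54l* on the opposite strand, had lower values in CAF-200 (−0.52, adjusted *p* = 0.0197).

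The other paralogs did not pass an adjusted *p* of 0.01. *Rad51c* reached a log2 fold-change of 0.88 (adjusted *p* = 0.0167) and *Xrcc3*, its partner in one of the paralog complexes, of 0.87 (adjusted *p* = 0.0305), and the CAF-200 values of *Xrcc3* were 8.91, 12.3 and 14.1 CPM. *Rad51b* lay between 4.85 and 5.17 CPM in CAF-vec and between 5.51 and 7.36 CPM in CAF-200 (0.30, adjusted *p* = 0.160). *Rad51d*, whose log2 fold-change was the lowest of the group, was at 14.9 and 9.23 CPM in CAF-vec and at 10.9, 10.8 and 8.91 CPM in CAF-200. Its groups overlapped, and its log2 fold-change of −0.20 (SE 0.216, adjusted *p* = 0.503) became 0.13 without CAF-vec sample 1 and −0.53 without CAF-vec sample 2 (adjusted *p* = 0.00823).

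Of 8 genes of the Fanconi core complex, the ubiquitin ligase of the pathway, 2 rose. Among the 8, 4 lay above both CAF-vec values, 2 below both, and 2 overlapped, beside 24.3% of all tested genes above both and 37.3% below both. *Fancm*, a DNA translocase that anchors the complex to stalled forks, was at 7.14 and 5.87 CPM in CAF-vec and at 13.7, 17.2 and 20.4 CPM in CAF-200. Its log2 fold-change of 1.31 (SE 0.188, adjusted *p* = 0.00765) was the largest of the 34, and its CAF-200 samples were spread more widely than those of *Exo1* or *Brca1*. *Fancb*, part of the catalytic module of the complex, was at 3.69 and 5.22 CPM in CAF-vec and at 9.73, 9.51 and 10.9 CPM in CAF-200 (1.10, SE 0.161, adjusted *p* = 0.00789).

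*Fancl*, the subunit that carries the ligase activity of that module, had overlapping groups. It was at 25.8 and 14.2 CPM in CAF-vec and at 20.2, 19.8 and 18.7 CPM in CAF-200 (0.03, SE 0.243, adjusted *p* = 0.930), and its 95% interval, −0.57 to 0.63, allowed a change in either direction. It passed the threshold in opposite directions without either CAF-vec sample, at 0.45 without sample 1 (adjusted *p* = 0.0045) and at −0.39 without sample 2 (adjusted *p* = 0.00472). *Fanca* and *Fancg*, which sit together in another module, had log2 fold-changes of 0.57 (adjusted *p* = 0.0224) and 0.48 (adjusted *p* = 0.0343). *Fanca* shares 920 exonic bases with *Zfp276* on the opposite strand, and *Zfp276* was lower in CAF-200 (−0.89, adjusted *p* = 0.0106).

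*Fancc*, *Fance* and *Fancf*, which encode the module that contacts the FANCI-FANCD2 clamp, did not pass the threshold. *Fance* was at 45.1 and 28.4 CPM in CAF-vec and at 27.3, 21.8 and 21.4 CPM in CAF-200, so that its log2 fold-change was −0.61 (SE 0.220, adjusted *p* = 0.0865), the lowest of the 34. The log2 fold-change of *Fancf* was −0.52 (adjusted *p* = 0.113) and that of *Fancc* 0.12 (adjusted *p* = 0.645). In *Fance* and *Fancf*, CAF-vec sample 1 was 1.59 and 1.65 times CAF-vec sample 2, so the distance between the CAF-vec samples was larger than that from CAF-vec sample 2 to the nearest CAF-200 sample. Without CAF-vec sample 2 both passed the threshold as lower, at −0.94 (adjusted *p* = 0.000613) and −0.86 (adjusted *p* = 0.000262), and without CAF-vec sample 1 neither did, at −0.28 (adjusted *p* = 0.131) and −0.17 (adjusted *p* = 0.234). *Gas2*, which shares 253 exonic bases with *Fancf* on the opposite strand, fell by 1.11 (adjusted *p* = 0.00343).

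Both genes of the clamp that the core complex modifies rose. *Fancd2* was at 9.83 and 11.8 CPM in CAF-vec and at 23.7, 24.2 and 23.6 CPM in CAF-200 (log2 fold-change 1.11, SE 0.107, adjusted *p* = 0.00324). *Fanci* was at 7.64 and 7.60 CPM in CAF-vec and at 13.1, 13.7 and 12.9 CPM in CAF-200 (0.76, SE 0.0907, adjusted *p* = 0.00506). In each gene the spread within a group was small beside the distance between the groups.

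**Figure D2:**
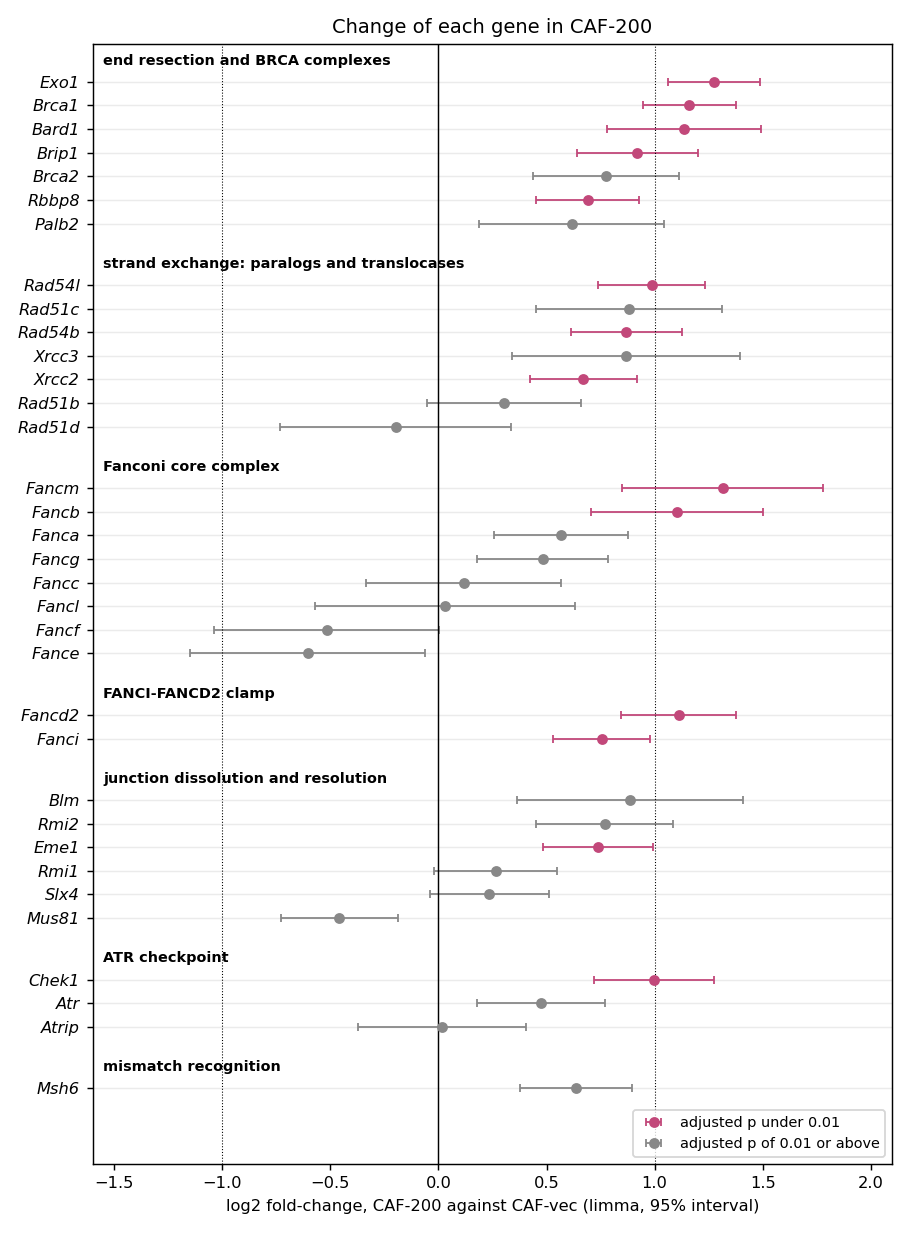
log2 fold-change of each gene in CAF-200 against CAF-vec with its 95% interval from limma, grouped by role; pink marks the 14 genes with an adjusted *p* under 0.01, grey the other 20, and dotted lines a change of 1 in either direction. All 7 resection and BRCA genes lie to the right of 0, whereas the Fanconi core complex runs from 1.31 for *Fancm* to −0.61 for *Fance*.

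Of 6 genes for the dissolution and resolution of joined DNA molecules, 1 rose and 0 fell, beside 4.45% and 5.57% of all tested genes. The CAF-200 values lay above both CAF-vec values in 5 and below both in 1, beside 24.3% and 37.3% of tested genes. *Blm*, the helicase that dissolves double Holliday junctions, was at 5.17 and 8.58 CPM in CAF-vec and at 11.72, 12.95 and 13.69 CPM in CAF-200 (0.89, SE 0.212, adjusted *p* = 0.0284). Its cofactors differed in size of change, with 0.77 for *Rmi2* (adjusted *p* = 0.0106) and 0.27 for *Rmi1* (adjusted *p* = 0.130), and the difference between these genes was not tested. *Eme1* and *Mus81* encode the subunits of a single endonuclease, yet *Eme1* rose by 0.74 (adjusted *p* = 0.00728) from 6.48 and 6.96 CPM to 12.4, 11.1 and 11.3 CPM. *Mus81* was at 24.4 and 23.0 CPM in CAF-vec and at 19.1, 16.3 and 16.2 CPM in CAF-200 (−0.46, SE 0.110, adjusted *p* = 0.0285). The value was 0.24 for *Slx4*, the scaffold for this and other nucleases (adjusted *p* = 0.156).

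The ATR checkpoint kinase senses stalled forks through ATRIP and activates CHK1, and of these 3 genes only *Chek1* passed the threshold. It was at 13.4 and 13.7 CPM in CAF-vec and at 25.3, 26.9 and 30.8 CPM in CAF-200 (1.00, SE 0.112, adjusted *p* = 0.00431). The value of *Atr* was 0.48 (adjusted *p* = 0.0329), with CAF-200 values of 15.88, 15.99 and 15.87 CPM above CAF-vec values of 10.1 and 12.7 CPM. *Atrip* was at 11.5 and 8.37 CPM in CAF-vec and at 9.20, 10.2 and 10.5 CPM in CAF-200 (0.02, SE 0.157, adjusted *p* = 0.945), and it shares 1147 exonic bases with *Trex1* on the same strand, so its value is uncertain. The log2 fold-change of *Trex1* itself was 0.57 (adjusted *p* = 0.0395). *Msh6*, which recognises mismatched bases in DNA, was at 35.9 and 30.1 CPM in CAF-vec and at 53.2, 50.2 and 50.7 CPM in CAF-200, and missed the threshold by little (0.64, SE 0.105, adjusted *p* = 0.0103).

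Levels of different genes were compared per kilobase of annotated exon. In CAF-200, *Msh6* stood highest at 11.8 CPM per kilobase, followed by *Fance* at 7.37, *Exo1* at 6.12 and *Chek1* at 5.97, and *Palb2* at 0.712, *Atr* at 0.674 and *Rmi2* at 0.644 CPM per kilobase were the lowest. In CAF-vec *Fance* was the highest at 11.5 CPM per kilobase and *Exo1* stood 12th at 2.50. Within the core complex *Fance* was the highest per kilobase in both groups, and the lowest was *Fancm* in CAF-vec at 0.623 and *Fancc* in CAF-200 at 0.948 CPM per kilobase.

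The CAF-vec samples differed from each other more than the CAF-200 samples did. No gene was at 0 in only some CAF-200 samples, so their spread may be understated. Across the 34 genes the log2 difference between the CAF-vec samples had an SD of 0.381, and that between CAF-200 samples of 0.105 to 0.216. *Rad51d*, *Fance*, *Fancf*, *Fancl* and *Blm* differed by more than 1.5-fold on the CPM + 0.5 scale between the CAF-vec samples (14.7%), as did 18.7% of all tested genes, and between CAF-200 samples only *Xrcc3* did. *Rad51d*, *Fance* and *Fancf* lay nearer to the CAF-200 values in CAF-vec sample 2, and *Blm* did too.

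The change was then set beside other genes of the same and of other repair routes. Of 45 further recombination and Fanconi genes 7 rose and 1 fell, with a median log2 fold-change of 0.28. *Mcm8*, a helicase subunit of recombination, rose by 0.99 (adjusted *p* = 0.00377) and *Rpa1*, a subunit of the protein that coats single-stranded DNA, by 0.85 (adjusted *p* = 0.00377). *Eme2*, the alternative partner of MUS81, fell by 0.94 (adjusted *p* = 0.00950). Of 20 other checkpoint genes 5 rose and 0 fell (median 0.52), led by *Topbp1*, the activator of ATR (0.79, adjusted *p* = 0.00395), the fork protection gene *Tipin* (0.75, adjusted *p* = 0.00552) and the phosphatase gene *Cdc25a* (0.66, adjusted *p* = 0.00698). *Pms1* was the single one of 6 other mismatch repair genes to rise (0.75, adjusted *p* = 0.00746; median of the list 0.48).

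Other repair routes had medians nearer to that of all tested genes. Of 11 genes of non-homologous end joining, which ligates broken ends directly, 0 rose and only *Paxx* fell (−0.91, adjusted *p* = 0.00956), and the median was 0.03. This call depended on the processing: with no filter on low values 0 rose and 0 fell, and with quantile normalization 1 rose and 0 fell. An unadjusted *p* under 0.05 was found in 4 of the 11 by limma, not above the 44.9% of all tested genes. Of 34 tested genes of base and nucleotide excision repair only *Neil3*, a glycosylase expressed in cycling cells, rose (0.88, adjusted *p* = 0.00518) and 0 fell, with a median of −0.12, and 15 of these 34 had an unadjusted *p* under 0.05 in limma, near the share of all tested genes. Of 21 p53 target genes, *Ccng1* (0.77, adjusted *p* = 0.00425) and *Eda2r* (1.30, adjusted *p* = 0.00560) rose and 0 fell, with a median of 0.18, and 9 of the 21 had an unadjusted *p* under 0.05 in limma, again near that share.

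Genes of S phase and mitosis were mostly higher too. Of 23 such genes 12 rose and 0 fell, beside 4.45% and 5.57% of all tested genes. All 23 had a log2 fold-change above 0, beside 41.7% of tested genes, and the median was 0.76. Their values summed to 2115 and 1961 CPM in CAF-vec samples 1 and 2, and the CAF-200 samples reached 3557, 3371 and 3502 CPM. Those with the lowest adjusted *p* were *Rrm2* (1.65, adjusted *p* = 0.00145), *Ccne1* (1.24, adjusted *p* = 0.00194), *Pcna* (1.14, adjusted *p* = 0.00254) and *Cdc6* (1.52, adjusted *p* = 0.00254), which serve nucleotide supply, entry into S phase, and the replication fork. Of the list, 11 genes did not pass an adjusted *p* of 0.01 in limma. Among them were *Ccnb1* (0.13, adjusted *p* = 0.462), *Cdk1* (0.54, adjusted *p* = 0.0406), *Top2a* (0.53, adjusted *p* = 0.0214) and *Mki67* (0.65, adjusted *p* = 0.0381). The replication genes *Mcm6* (0.61, adjusted *p* = 0.0160) and *Cdt1* (0.59, adjusted *p* = 0.0801) did not pass either. The part of S phase and mitosis genes in the change of the repair genes was not tested. In bulk RNA, more cells in S phase and more RNA per cell cannot be told apart. The study counted cells and reported marginally lower growth of CAF-200 than of CAF-vec. Cell cycle phase was not measured in these data.

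**Figure D3:**
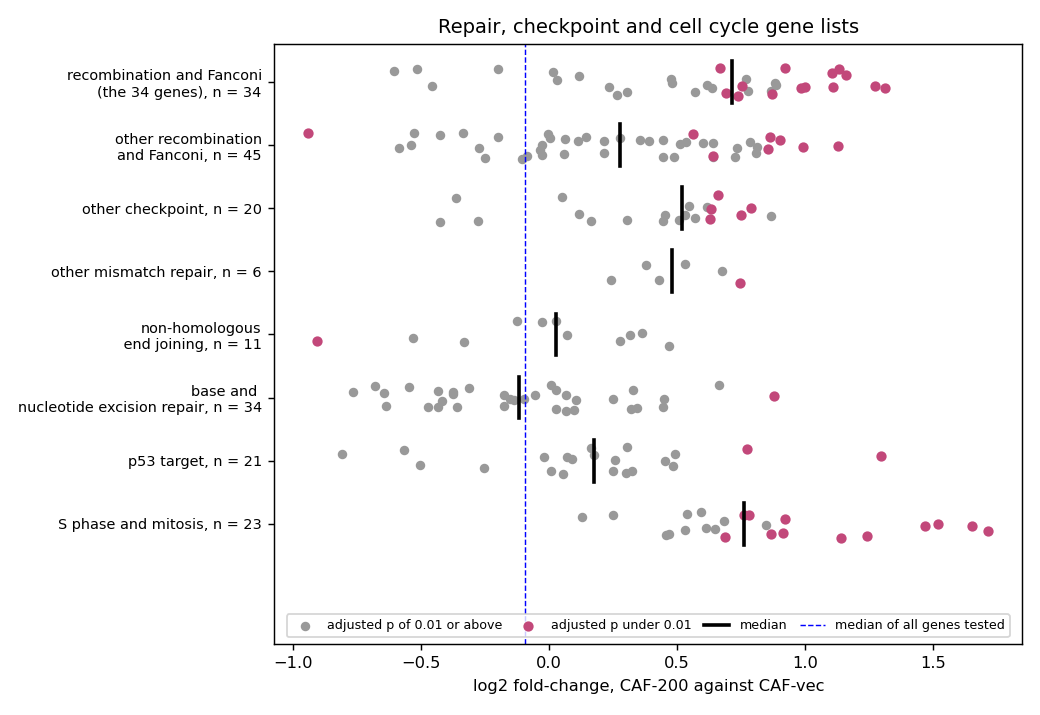
log2 fold-change of each tested gene in CAF-200 against CAF-vec, for the 34 recombination and Fanconi genes and 7 other lists; each point is a gene, pink where the adjusted *p* was under 0.01, black bars are medians and the dashed line is the median of all tested genes, −0.09. Medians lie at 0.71 for the 34 genes and 0.76 for S phase and mitosis genes, and at 0.03 and −0.12 for end joining and excision repair.

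Genes with an E2F word had the higher median. The 14 genes with a word in the promoter had a median log2 fold-change of 0.88, and the 13 without had 0.30. Among all tested genes with a promoter in RefSeq, the median was −0.0044 for 1675 genes with a word and −0.12 for 7875 without. The groups of the 34 genes overlapped: *Fancf* held a word at −0.52, and *Rad54l* held none at 0.99. Promoters of S phase and mitosis genes held a word in 14 of 20 cases, those of other mismatch repair genes in 3 of 4, those of other checkpoint genes in 8 of 15 and those of end joining genes in 4 of 9. The further recombination and Fanconi genes held one in 14 of 37, excision repair genes in 8 of 29 and p53 targets in 2 of 17. Some lists held few promoters, and the relation of these shares to the lists' medians was not tested. The word CCAAT occurred in 17 of the 27 promoters (63.0%), beside 39.5% of tested genes, and the genes with it had a median of 0.62 and those without of 0.75. The words TTTGAA and TTCGAA of the cell cycle homology region, the latter of which reads the same on both strands, occurred in 3 of 27 (11.1%), beside 13.7%. A match to these letters describes the sequence, and binding was not measured.

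**Figure D4:**
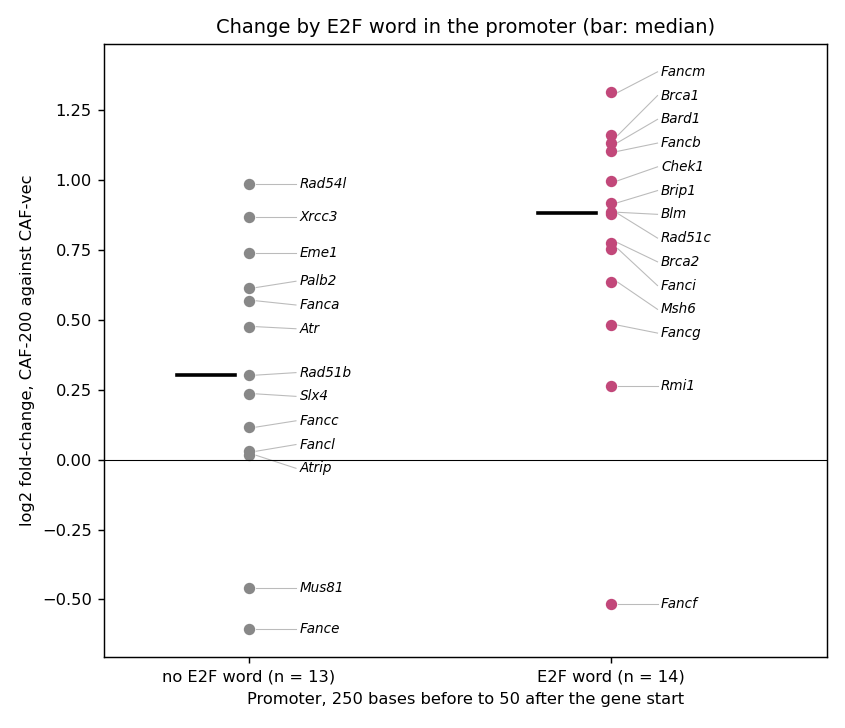
log2 fold-change in CAF-200 against CAF-vec of the 27 genes with a promoter in RefSeq, without (13, grey) and with (14, pink) an E2F word from 250 bases before to 50 after the start; black bars are medians. The medians are 0.30 and 0.88, and *Fancf* lies apart from the other genes with a word at −0.52.

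As a check of the samples, fibroblast genes were expressed in all of them, with lowest values of 1543 CPM for *Col1a1*, 2048 CPM for *Col1a2* and 2085 CPM for *Vim*, while *Fap* stayed below the filter. The 10 fibroblast markers summed to 17240 and 13380 CPM in CAF-vec samples 1 and 2 and lay between 10730 and 11720 CPM in CAF-200, where *Thy1* and *Dcn* rose. Of 7 epithelial markers 0 passed the filter, with *Krt18* and *Sftpc* at 0 in all samples, and of 6 endothelial markers only *Egfl7* did, with *Tie1*, *Emcn* and *Cldn5* at 0. The 6 immune markers summed to 8.34 and 9.31 CPM in CAF-vec samples 1 and 2 and lay between 12.2 and 12.8 CPM in CAF-200, where *Lyz2* rose (1.91, adjusted *p* = 0.00395), *Cd68* (−0.14, adjusted *p* = 0.758) and *Csf1r* (−0.46, adjusted *p* = 0.250) did not, and *Adgre1* and *Cd3e* were at 0. Mature miRNAs are not captured in mRNA libraries, so the introduced ones were not measured in these data. By RT-qPCR, the study measured miR-200a, miR-200b and miR-429 in CAF-vec and CAF-200 and reported their overexpression. It also reported lower *Zeb1* expression by RT-qPCR. *Zeb1*, a known target of miR-200, was at 43.5 and 50.8 CPM in CAF-vec and at 37.8, 37.5 and 34.1 CPM in CAF-200 (−0.36, adjusted *p* = 0.0504). *Zeb2*, another known target, was at 46.2 and 29.8 CPM in CAF-vec and at 31.9, 31.8 and 31.1 CPM in CAF-200, and its groups overlapped (−0.23, adjusted *p* = 0.374).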

How the data were processed

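RNA of 2 CAF-vec and 3 CAF-200 samples was analysed. The authors deposited 1 table of normalized expression in CPM, named for TMM, whose columns summed to between 999956.1 and 1000111.1. The submitters' processing notes name FastQC, cutadapt, Trimmomatic, STAR, RSEM, edgeR and GRCm38, and the study tested with edgeR. Low values were not whole multiples of a common step, so reads could not be recovered, the depth of each sample is unknown, and edgeR and DESeq2 were not run here. 6127 genes were at 0 in every CAF-200 sample and no gene was at 0 in only some of them. By contrast, 1205 genes were at 0 in only some CAF-vec samples. The reason was not tested, so the spread between CAF-200 samples, and with it SE and *p* values from limma, may be understated. All columns were used.

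Genes were tested if 2 or more samples reached 0.5 CPM, which kept 12175 genes. The values, as log2(CPM + 0.5), entered limma 3.58.1 (R 4.3.3), with an empirical Bayes fit that let the variance follow the mean, and Benjamini-Hochberg adjustment over these genes. Fold-changes are on that scale, which understates changes of low genes. Called genes had an adjusted *p* under 0.01. Gene names came from GENCODE M21 by identifier (21795 of 21835 matched). The libraries were stranded, and the strand setting of the counting is not given in the sources used here, so values of genes that overlap another are uncertain.

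All 34 genes were named. Full statistics were given for genes past both thresholds and for the highest and lowest log2 fold-change of each role, and of other lists the up to 3 genes with the lowest adjusted *p* in each direction, ties included. Overlapping genes and those singled out by leaving out a sample were chosen after their values were seen. So were the S phase and mitosis genes named as not passing. The members and lists were chosen with earlier results of these data known. One gene of the other lists that this rule would name is not reported here.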

Additional observations from a re-analysis of the deposited data

How the results depend on the processing

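With 2 CAF-vec samples whose values differed, single calls depend on each library. Of the 34 genes, 14 rose and 0 fell, and the counts were 7 and 0 with no filter on low values and 24 and 1 at an adjusted *p* under 0.05. Leaving out 1 sample gave 0 to 25 higher and 0 to 5 lower, with the lone CAF-vec sample assumed to vary like CAF-200. The counts over all genes moved too, from 4.45% higher and 5.57% lower to between 0% and 19.4% higher and between 0% and 31.3% lower without 1 sample, and to 2.16% and 2.34% with no filter. The 6 genes past both thresholds became 3 with no filter, 8 with a pseudocount of 0.1 CPM or quantile normalization, 9 with centring, and 0 to 10 without 1 sample. The median log2 fold-change of 0.71 became 0.79 with quantile normalization and 0.81 with centring on each sample's median, and 0.67 to 0.72 without 1 sample. Under quantile normalization and centring 17 of the 34 rose (5.86% and 5.91% of all genes), and the share of all calls that were higher went from 44.4% to 54.0% and 57.0%.

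Of the other lists together, 28 genes rose and 2 fell. The counts were 14 and 0 with no filter, 61 and 12 at an adjusted *p* under 0.05, and 0 to 69 and 0 to 30 without 1 sample. Fallen genes numbered 1 with quantile normalization or centring, and 0 without a variance trend or with robust empirical Bayes. The sign turned for 4 genes when a sample was left out, with values from −0.2045 to 0.236 for *Atrip*, −0.5294 to 0.132 for *Rad51d*, −0.3903 to 0.4511 for *Fancl* (past the threshold at both ends) and −0.1491 to 0.3827 for *Fancc*. The cause was not tested. With a pseudocount of 1 or 0.1 CPM every one of the 34 genes kept its direction and its side of the adjusted *p* of 0.01.

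Same-numbered samples share only a number in the labels. Their deviations from the group means correlated at 0.25 (number 1) and 0.13 (number 2). Those of CAF-vec sample 2 and CAF-200 sample 3, which do not share a number, correlated at 0.12. The 2 CAF-vec samples have mirrored deviations, so these values are not independent. In a fit that blocked on the replicate number, none (0) of the 34 passed an adjusted *p* of 0.01 in limma, 0 passed both thresholds, 24 were higher and 3 lower at an unadjusted *p* under 0.05 (12.9% and 20.4% of all genes), the median was 0.71, and *Atrip* turned to −0.0232. Of the other lists 3 genes rose and 0 fell under the block, and of all genes 101 rose (0.83%) and 70 fell (0.575%). edgeR and DESeq2 were not run, since whole reads could not be recovered.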
